A study of Mus musculus with 78 samples.

Results

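The genes described here make, package or mark GABA neurons: Gad1, Gad2, Slc32a1, Lhx6, Sst, Vip, Cck, Calb2, Reln and Lamp5. They were chosen by name, as genes known for GABA neurons, with earlier results of these data known. All 10 were among the 55367 gene symbols that both deposited count tables list, and each had reads in every library, with a lowest count of 4 for Calb2. The libraries were poly(A) RNA-seq of whole dissected tissue from 7 brain regions of 12 mice, namely amygdala, cortex, prefrontal cortex, dorsal and ventral hippocampus, and dorsal and ventral striatum. The mice were single-housed C57BL6/J adults of both sexes, either WT or ACSS2 KO, with 3 mice of each sex and genotype. In ACSS2 KO mice a constitutive deletion made with CRISPR/Cas9 removed exons 3 to 7 of Acss2, an enzyme that turns acetate into acetyl-CoA, in every cell, and founders were backcrossed for 3 generations. All mice of both genotypes had drunk ethanol at 15% by volume in the drinking-in-the-dark procedure (DiD 2BC + 1B), so no library here comes from a mouse without ethanol. The study asked what ACSS2 loss does to the brain of drinking mice. The questions for these genes were how their levels differed between regions and between ACSS2 KO and WT.

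GABA, the main inhibitory transmitter of the forebrain, is made from glutamate by glutamate decarboxylase. Gad1 encodes the form found throughout the cell, which makes most of the basal GABA, and Gad2 the form concentrated at synaptic terminals. Slc32a1 encodes the vesicular transporter that loads GABA into synaptic vesicles. In cortex and hippocampus GABA neurons are mostly interneurons and a minority of all neurons, whereas in the striatum the projection neurons themselves use GABA. Gad1, Gad2 and Slc32a1 therefore mark different cells in different regions. Lhx6 is a transcription factor of interneurons born in the medial ganglionic eminence, the source of the Sst class. Vip, Calb2 (calretinin), Reln (reelin) and Lamp5 mark further classes, many of them born in the caudal ganglionic eminence. None of these is limited to interneurons: Cck is also made by excitatory neurons, Calb2 by olfactory bulb and thalamic neurons, and Lamp5 by some excitatory and striatal neurons. In bulk tissue, fewer cells of a type and less RNA per cell cannot be told apart.

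The promoters below are shown for the pairs of genes that moved together most closely within groups (Gad2 with Slc32a1, and Vip with Cck) and for Sst, a peptide with another order of regions. Each is 300 bases, from 250 before to 50 after the transcription start that RefSeq gives on GRCm38.p6, and capitals mark matches on either strand to the letters searched: TGACGTCA (the cAMP response element), TATAAA (the TATA box), TAATTA (a homeodomain core) and CAGCTG (an E-box).
Gad2, chr2:22622077-22622376, plus strand: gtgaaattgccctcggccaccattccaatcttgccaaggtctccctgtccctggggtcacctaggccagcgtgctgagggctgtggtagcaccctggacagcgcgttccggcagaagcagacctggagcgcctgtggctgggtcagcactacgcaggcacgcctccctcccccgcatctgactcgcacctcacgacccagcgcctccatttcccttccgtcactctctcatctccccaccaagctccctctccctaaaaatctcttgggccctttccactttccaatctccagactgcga
Slc32a1, chr2:158610508-158610807, plus strand: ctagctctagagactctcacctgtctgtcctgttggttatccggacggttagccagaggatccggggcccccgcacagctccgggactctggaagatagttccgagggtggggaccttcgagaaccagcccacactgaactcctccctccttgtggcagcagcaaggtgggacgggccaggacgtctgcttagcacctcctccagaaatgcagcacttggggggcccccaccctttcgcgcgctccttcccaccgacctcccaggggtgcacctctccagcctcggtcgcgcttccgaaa
Vip, chr10:5638968-5639267, plus strand: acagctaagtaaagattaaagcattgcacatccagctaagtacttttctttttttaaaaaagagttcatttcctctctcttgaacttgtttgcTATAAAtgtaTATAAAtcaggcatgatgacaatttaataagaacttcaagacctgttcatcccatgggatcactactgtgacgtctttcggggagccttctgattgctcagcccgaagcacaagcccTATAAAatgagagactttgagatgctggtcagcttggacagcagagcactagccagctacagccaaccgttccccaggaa
Cck, chr9:121495645-121495944, minus strand: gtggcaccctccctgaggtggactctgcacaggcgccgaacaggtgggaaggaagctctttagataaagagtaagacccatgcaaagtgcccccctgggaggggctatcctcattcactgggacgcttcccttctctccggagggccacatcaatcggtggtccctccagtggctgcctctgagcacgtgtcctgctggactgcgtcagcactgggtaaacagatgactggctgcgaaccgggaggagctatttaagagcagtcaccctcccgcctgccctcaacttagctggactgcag
Sst, chr16:23890795-23891094, minus strand: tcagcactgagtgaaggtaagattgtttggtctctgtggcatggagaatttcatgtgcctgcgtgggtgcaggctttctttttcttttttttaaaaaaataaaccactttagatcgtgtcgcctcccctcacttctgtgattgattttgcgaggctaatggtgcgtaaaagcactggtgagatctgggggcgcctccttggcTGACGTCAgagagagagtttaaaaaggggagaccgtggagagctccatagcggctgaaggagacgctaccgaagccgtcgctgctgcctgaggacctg

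The Sst window held TGACGTCA at -48 to -41 from the start, letters found in 1.79% of the 32851 promoter windows in the table. Vip held TATAAA 3 times, the nearest at -30 to -25, and 13.6% of windows held it at least once. In Gad1 and in a window of Lhx6 the letters of the TATA box were found on the other strand only. The windows of Gad2, Slc32a1 and Cck held none of the letters searched, which says only that these letters are not in these 300 bases. TAATTA was in 5.29% of all windows and in none of the members' windows. The E-box letters, in 16.3% of windows, were found among the members only in a window of Lhx6, at -131 to -126 and at -40 to -35. The Gad2 and Slc32a1 windows, at 61.3% and 63.3% GC with 14 and 17 CpG, were richer in GC than the Vip window, at 41.7% GC with 4 CpG, against a median of 52.7% GC and 7 CpG over all windows. The table matched 9 members, with 12 windows.

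Along chromosome 2 of GRCm38, which also holds Acss2, lie 5 members, in the order Gad2, Lhx6, Gad1, Lamp5 and Slc32a1. Slc32a1 (158610767 to 158615748, plus strand) is the nearest to Acss2, and Lamp5 (136052239 to 136069917, plus strand) is 19.4 Mb away. The others are Sst on chromosome 16 (23889573 to 23890958), Vip on 10 (5639218 to 5647617), Cck on 9 (121489824 to 121495694), Calb2 on 8 (110137502 to 110168210) and Reln on 5 (21884454 to 22344702). All are protein coding in GENCODE M21. Antisense genes overlap Gad1, Slc32a1 and Reln, and none of them exceeded 1.46 CPM in any library.

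Levels are given in CPM, a gene's count scaled by the total count of its library. Depth differed by region: 47 libraries of amygdala, dorsal hippocampus and both striatal regions held 4454420 to 14487778 counts, and 31 of cortex, prefrontal cortex and ventral hippocampus held 629635 to 1228828. A count of 3 was worth at most 0.673 CPM in the first set and at most 4.76 CPM in the second, so Calb2 in the cortex rests on few reads. Comparisons across these sets cannot be told apart from whatever else differed between them. Acss2 was at 0.971 to 13.96 CPM in the 40 KO libraries and 35.9 to 73.8 CPM in the 38 WT libraries, and it was lower in KO in each of the 7 regions with the sexes pooled. In prefrontal cortex the library labelled mouse 23, a female WT, carried Ddx3y, a gene of the Y chromosome, at 73.4 CPM, a level otherwise seen in male libraries. Marker genes set 8 libraries apart from the rest of their region. Striatal projection neuron markers summed to 196 and 358 CPM in dorsal striatum of female WT mouse 23 and male KO mouse 10, against 3769 to 7470.01 in the other 10 libraries, and to 927 and 388 CPM in ventral striatum of male KO mouse 10 and male WT mouse 13, against 1479.9 to 7266. The same list reached 3468 CPM in ventral hippocampus of female KO mouse 6, against 92.3 to 246. Olfactory bulb and neuroblast markers reached 180.4 and 261 CPM in prefrontal cortex of female WT mouse 11 and male WT mouse 3, against 39.2 to 105. Excitatory neuron markers summed to 2544 CPM in dorsal hippocampus of female WT mouse 23, against 5286 to 7595. Choroid plexus markers were not used to set libraries apart. They summed to 15.7 to 9060 CPM in amygdala, 1.71 to 6565 in dorsal striatum, 30.2 to 4794 in dorsal hippocampus and 2.09 to 1127 in cortex, and to at most 112.9 CPM in the other regions. Within groups they had an r of -0.46 with Cck and 0.34 with Slc32a1 over 77 libraries, and their part in the results was not tested. Results without the 8 libraries are given below for part of the comparisons, and not for every call that changed.

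All 10 genes differed between regions by edgeR's quasi-likelihood test over 78 libraries, among 79.5% of the 19555 genes tested. Adjusted p ran from 8.51e-23 for Gad2 to 7.8e-06 for Calb2. Over the 21 pairs of regions, 128 of the 210 member tests were called at an adjusted p under 0.05, against 32.9% of tests over all genes. Gad1 and Gad2 were called in 15 pairs each, Calb2 and Cck in 10 each. Without the 8 libraries that stand apart, 132 tests were called, 119 of them the same, against 33.6% over all genes. Calls changed in 22 tests, among them 7 of Calb2, 3 each of Gad1, Lamp5 and Vip, and 2 each of Reln and Sst. The plot of the 78 libraries by region shows the order of levels gene by gene.

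**Figure D1:**
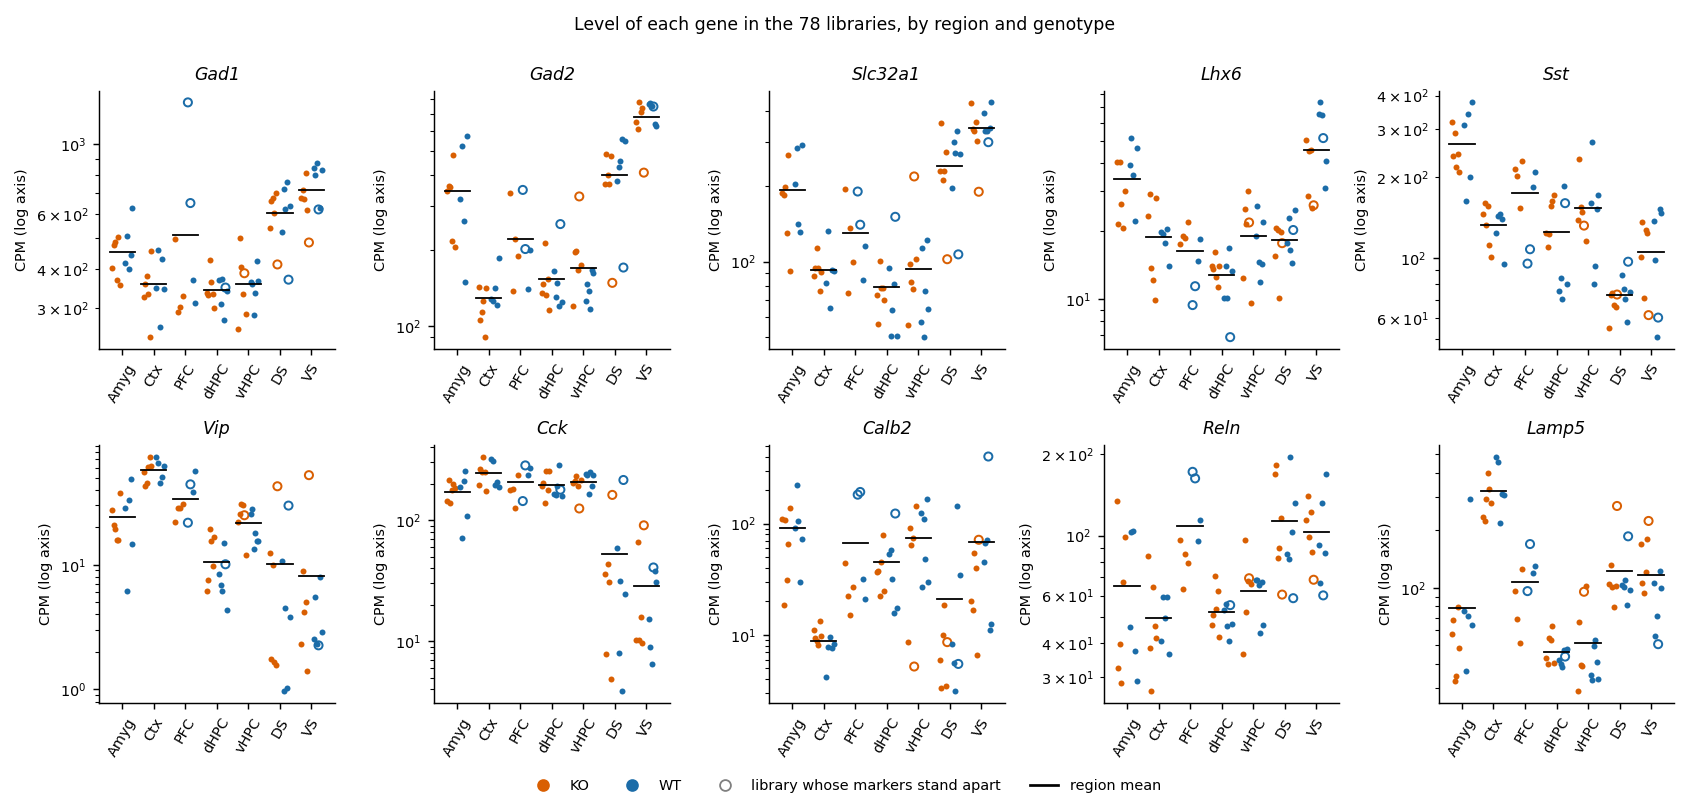
CPM (log axis) of each of the 10 genes in the 78 libraries, by region, with KO and WT libraries as separate points, the region mean as a line and the 8 libraries whose markers stand apart as open circles. Gad1, Gad2 and Slc32a1 are highest in the ventral striatum, Cck is lowest in both striatal regions, Lamp5 is highest in the cortex, and KO and WT points overlap for every gene in every region.

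The enzymes and the transporter of GABA shared one order of regions at the top. Gad2 was at 408, 725 and 778 CPM (lowest, median and highest of 12 libraries) in ventral striatum, and at 90.2, 125 and 187 CPM in 11 cortex libraries, so the regions did not overlap. Its mean of 683 ± 106 CPM (SD, n = 12) in ventral striatum was followed by 398 ± 128 in dorsal striatum (n = 12) and 345 ± 135 in amygdala (n = 11). Prefrontal cortex (223 ± 80.6, n = 8), ventral hippocampus (170.1 ± 56.9, n = 12), dorsal hippocampus (154 ± 41.4, n = 12) and cortex (129 ± 24.9, n = 11) came next. In this order the steps from ventral to dorsal striatum and from amygdala to prefrontal cortex were called by edgeR (adjusted p 0.00156 and 0.0034), and the other neighbours did not differ beyond their spread.

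Slc32a1 was at 190.3, 337 and 434 CPM in 12 ventral striatum libraries and at 50.5, 75.8 and 151 CPM in 12 of dorsal hippocampus, its lowest region. Its means fell in the same order as Gad2 down to the prefrontal cortex. The difference between ventral and dorsal striatum, 341 ± 64.8 against 241 ± 79.6 CPM (SD, n = 12 each), had a log2 size of 0.46 ± 0.18 (SE) and did not pass (adjusted p 0.0849, edgeR). Only the step from amygdala to prefrontal cortex was called between neighbours (log2 0.69, adjusted p 0.0148, edgeR). The lowest ventral and dorsal striatal values of Gad2 and Slc32a1 belonged to libraries that stand apart. Without them the amygdala was below the dorsal striatum for both (log2 -0.40, adjusted p 0.0113 for Gad2 and log2 -0.51, adjusted p 0.00191 for Slc32a1, edgeR).

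Gad1 was more even across regions. It was at 486, 695 and 872 CPM in 12 ventral striatum libraries and at 274, 338 and 428 CPM in 12 of dorsal hippocampus, a ratio of region means of 2.09, against 5.28 between the extreme regions for Gad2 and 4.32 for Slc32a1. Ventral and dorsal striatum did not differ beyond their spread (713 ± 118 and 601 ± 119.6 CPM, SD, n = 12 each, adjusted p 0.401, edgeR). The prefrontal cortex had the widest spread of Gad1, with 6 libraries from 291 to 497 CPM and the libraries with olfactory bulb markers at 649 and 1361 CPM. With all 8, its mean was 514 ± 364 CPM and Gad1 was higher there than in ventral hippocampus (log2 0.44, adjusted p 0.0389, edgeR). Without the libraries that stand apart the difference was -0.05 (adjusted p 0.854), and with the mouse as a block it was 0.40 (adjusted p 0.0584).

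Scaled by exonic length, to compare genes within a library, Gad1 exceeded Gad2 on average in every region except the ventral striatum. Before this scaling Gad1 was the higher there too, with means of 713 and 683 CPM. The exception therefore rests on the lengths used, which join all annotated exons and need not be those of the transcripts present. The Gad1 to Gad2 ratio was 1.41, 2.1 and 2.82 (lowest, median and highest of 11) in cortex and 0.636, 0.823 and 1.02 (of 12) in ventral striatum, with no overlap. Region means of this ratio were 2.18 ± 0.503 in cortex, 1.77 ± 0.287 in dorsal hippocampus, 1.73 ± 0.713 in prefrontal cortex, 1.71 ± 0.379 in ventral hippocampus, 1.25 ± 0.340 in dorsal striatum, 1.13 ± 0.424 in amygdala and 0.812 ± 0.12 in ventral striatum (SD). These ratios are a description with no test. The Gad2 to Slc32a1 ratio moved less, from a region mean of 0.686 ± 0.191 in cortex to 0.971 ± 0.166 in ventral striatum.

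**Figure D2:**
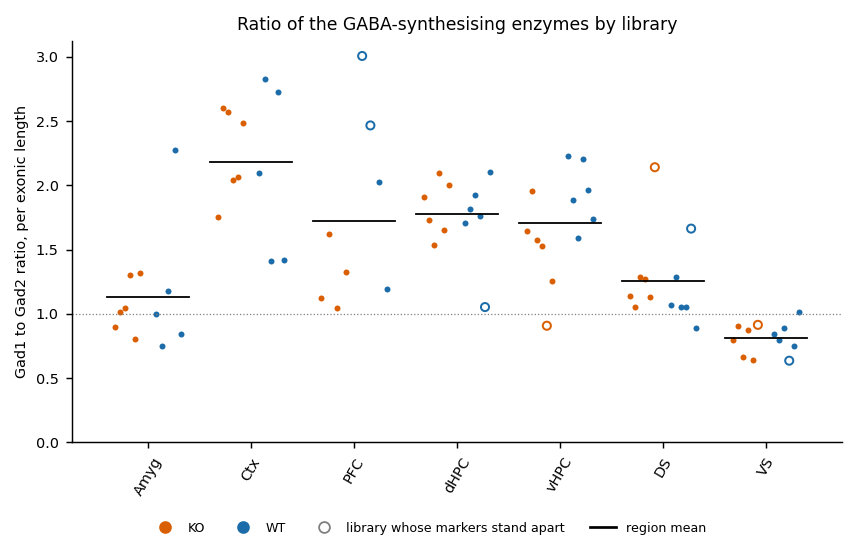
Ratio of Gad1 to Gad2, each divided by its exonic length, in every library, by region and genotype, with region means as lines and libraries whose markers stand apart as open circles. The cortex libraries, from 1.41 to 2.82, lie above all ventral striatum libraries, from 0.636 to 1.02.

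Lhx6, the transcription factor of the Sst and parvalbumin lineages, was at 25.1, 45.3 and 73.6 CPM in 12 ventral striatum libraries and 20.7, 35.4 and 51.6 CPM in 11 of amygdala. The remaining 5 regions had means from 12.7 to 18.98 CPM, and their neighbours in order did not differ beyond their spread. Dorsal striatum was lower than ventral striatum, with a log2 difference of -1.26 ± 0.16 (SE, adjusted p 2.97e-08, edgeR), and the ranges did not overlap (dorsal striatum 10.1, 18.7 and 24.6 CPM). The step from amygdala to ventral hippocampus was 0.88 (adjusted p 0.000225). The smaller step from ventral striatum to amygdala was 0.38 (adjusted p 0.0453) and lost its call with the mouse as a block (adjusted p 0.055).

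Sst, the somatostatin precursor, had another order. It was at 162, 243 and 377 CPM in 11 amygdala libraries and 55.02, 73.2 and 96.9 CPM in 12 of dorsal striatum, with no overlap. Means were 264 ± 67.6 CPM in amygdala, 174 ± 50.1 in prefrontal cortex, 154 ± 53.2 in ventral hippocampus, 132 ± 21.7 in cortex, 125 ± 41.2 in dorsal hippocampus, 105 ± 36.7 in ventral striatum and 72.7 ± 11.4 in dorsal striatum (SD). Amygdala stood above prefrontal cortex by 0.74 on the log2 scale (adjusted p 0.00311, edgeR). The log2 difference was 0.48 (adjusted p 0.0938) without the libraries that stand apart, in which prefrontal Sst was lower (95.3 and 108 CPM, against 153 to 229 in the other 6). The 4 regions from prefrontal cortex to dorsal hippocampus did not differ between neighbours. Ventral striatum was above dorsal striatum by 0.48 ± 0.16 (SE, adjusted p 0.0439, edgeR), a call lost with the mouse as a block (0.45, adjusted p 0.0625) and without mouse 1, 2, 3, 4, 5, 6, 23 or 24, where adjusted p lay between 0.0541 and 0.11.

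Vip and Cck were low in the striatum. Vip was at 43.01, 60.7 and 73.7 CPM in 11 cortex libraries, 1.42, 3.51 and 52.2 in 12 of ventral striatum and 0.967, 4.17 and 42.5 in 12 of dorsal striatum. The high striatal values came from the libraries with few striatal markers: without them the highest were 8.88 and 12.5 CPM. Cck was at 173, 248 and 334 CPM in cortex, 6.5, 15.4 and 90.5 in ventral striatum and 3.87, 31.1 and 214 in dorsal striatum, and again the highest 2 dorsal values and the highest ventral value were in those libraries. The log2 difference of ventral striatum from cortex was -3.06 ± 0.44 for Vip and -3.21 ± 0.39 for Cck (SE, adjusted p 1.2e-08 and 9.25e-11, edgeR). In the 5 other regions Cck means lay between 172 and 244 CPM with no pair of these regions called, whereas Vip means ran from 57.9 ± 10.9 CPM in cortex to 10.5 ± 4.87 in dorsal hippocampus (SD).

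No step between neighbouring regions was called for Vip, the ends of its order being separated by several small steps. Without the libraries that stand apart, Vip was higher in dorsal hippocampus than in dorsal and ventral striatum (log2 1.17 and 1.35, adjusted p 0.0019 and 0.000687, edgeR). With all libraries these were 0.27 and 0.69 and were not called (adjusted p 0.622 and 0.174). Dorsal hippocampus against ventral striatum was called with the mouse as a block too (0.92, adjusted p 0.0299).

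Calb2, a calcium-binding protein, varied widely within most regions. It was at 18.6, 92.1 and 225 CPM in 11 amygdala libraries, 5.19, 69.7 and 166 in 12 of ventral hippocampus, 6.55, 42.8 and 401 in 12 of ventral striatum, 15.1, 29.3 and 193 in 8 of prefrontal cortex, 15.8, 37.3 and 123 in 12 of dorsal hippocampus, 3.11, 7.13 and 143 in 12 of dorsal striatum and 4.19, 8.87 and 13.2 in 11 of cortex. The cortex was the only region with a narrow range, at a level of few reads. Among libraries that stand apart, prefrontal cortex of female WT mouse 11 and male WT mouse 3 had 193 and 182 CPM, and ventral striatum of male WT mouse 13 had 401 CPM. Without the libraries that stand apart the prefrontal mean went from 66.9 to 26.8 CPM, and calls changed in 7 of the 21 region pairs, more than for any other member. Mouse 13 was also high in dorsal striatum (143 CPM, the others 3.11 to 34.4), where its striatal markers were within the range of the region.

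Reln, a secreted matrix protein, was at 58.7, 96.5 and 196 CPM in 12 dorsal striatum libraries, 63.4, 95.95 and 172 in 8 of prefrontal cortex and 60.1, 95.6 and 169 in 12 of ventral striatum, and these 3 regions did not differ beyond their spread. Ventral striatum was above amygdala (65.4 ± 37.8 CPM, SD, n = 11) by 0.67 on the log2 scale (adjusted p 0.00575, edgeR). Ventral hippocampus, dorsal hippocampus and cortex followed at means of 62.4, 52.1 and 49.8 CPM with no neighbour called. Lamp5, a membrane protein of neurogliaform and related cells, was at 219, 308 and 488 CPM in 11 cortex libraries. Its next region was dorsal striatum at 79.1, 103 and 269 CPM, lower by 1.39 ± 0.24 on the log2 scale (SE, adjusted p 1.58e-06, edgeR). No later step in the order of Lamp5 was called, down to the hippocampal means of 51.4 ± 24.5 and 46.1 ± 7.41 CPM (SD, n = 12 each). These Reln and Lamp5 results are from all libraries. Without those that stand apart, calls changed in 2 region pairs for Reln and 3 for Lamp5.

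Between cortex and ventral striatum 9 of the 10 members were called, against 47.1% of all genes tested, with 6 higher in ventral striatum (Gad1, Gad2, Slc32a1, Lhx6, Calb2 and Reln) and 3 higher in cortex (Vip, Cck and Lamp5). The median log2 difference of the members was 1.03, against 0.06 over all genes. Between the 2 striatal regions 4 members were called, against 10.6% of all genes, and all were higher in ventral striatum: Lhx6, Gad2, Sst and Calb2. The Calb2 difference of dorsal from ventral striatum, -1.66 ± 0.46 on the log2 scale (SE, adjusted p 0.011, edgeR), became -0.71 (adjusted p 0.279) without the libraries that stand apart, leaving 3 members called against 16.8% of all genes. Between dorsal and ventral hippocampus edgeR called 0 of the 10, against 19.8% of all genes. At an unadjusted p under 0.05 there were 2, Lhx6 and Vip, both lower in dorsal hippocampus, and DESeq2 called 1. Without the libraries that stand apart 1 was called, Vip (log2 -0.96, adjusted p 0.0435), against 18.3%.

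Between cortex and prefrontal cortex 4 members were called, against 23.6% of all genes. Lamp5 was higher in cortex by 1.68 ± 0.29 on the log2 scale (SE, adjusted p 5.58e-06, edgeR), while Calb2, Reln and Gad2 were lower there, with log2 differences of -2.79, -1.1 and -0.70. Gad2 lost its call without mouse 1 (adjusted p 0.0586) or mouse 3 (adjusted p 0.053). Without the libraries that stand apart Calb2 was not called (log2 -1.63, adjusted p 0.149), leaving 3 members against 22.3% of all genes.

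Across the 28 groups of sex, genotype and region, the group means of log2(CPM + 1) of Gad2 and Slc32a1 had a Pearson's r of 0.97, and those of Gad1 had 0.88 and 0.90 with them. Vip and Cck had 0.83. Gad2 and Cck ran against each other at -0.86, and Calb2 against Lamp5 at -0.66. After each group's mean was subtracted, the same pairs over 77 libraries had 0.82 for Gad2 with Slc32a1, 0.79 for Vip with Cck and -0.61 for Gad2 with Cck, while Calb2 and Lamp5 had -0.22. These are descriptions without a test: the points share mice, libraries and depth by region, and CPM are shares of one total.

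**Figure D3:**
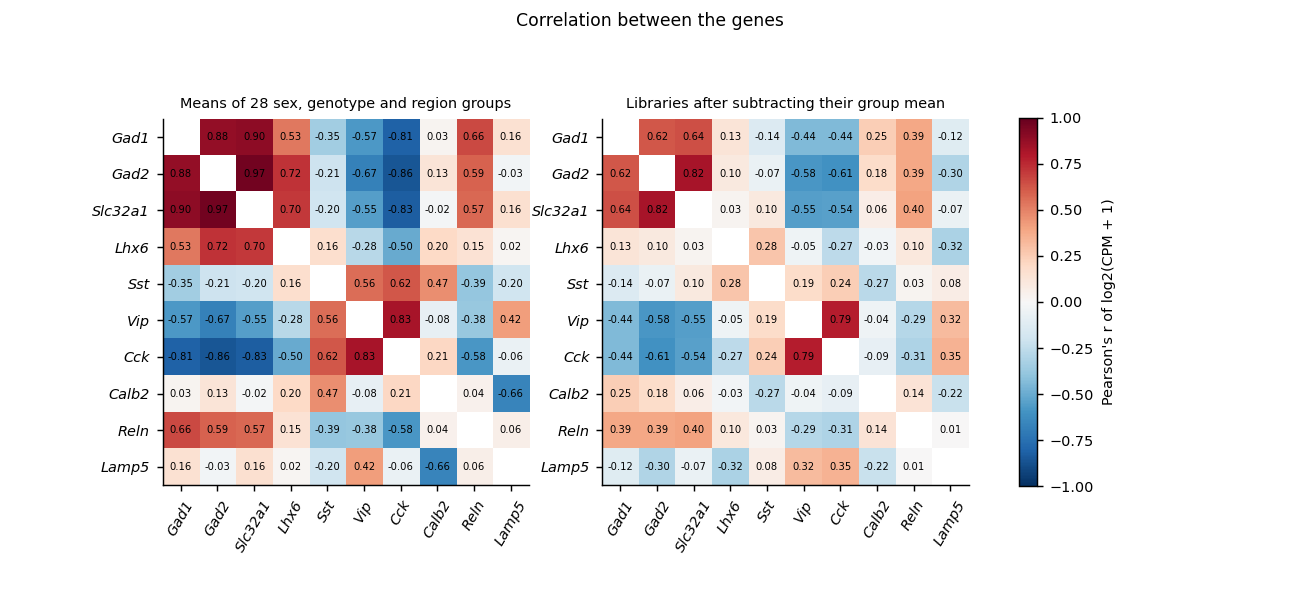
Pearson's r of log2(CPM + 1) between each pair of the 10 genes, over the means of 28 groups (left) and over 77 libraries after subtracting their group's mean (right). Gad1, Gad2 and Slc32a1 form a block of positive values on both sides (0.88 to 0.97 and 0.62 to 0.82), Vip and Cck a second one (0.83 and 0.79), and the 2 blocks are negative against each other.

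Marker genes of other cells moved with some members within groups. Over 77 libraries after subtraction of the group mean, the summed excitatory neuron markers had an r of -0.755 with Gad2, -0.755 with Slc32a1, 0.757 with Cck and 0.682 with Vip, and near 0 with Sst. Striatal projection neuron markers had 0.63 with Gad2, 0.70 with Slc32a1 and -0.56 with Vip. Olfactory bulb and neuroblast markers had 0.56 with Calb2 and 0.38 with Gad1. The part of tissue make-up in the members' differences was not tested. Over group means, the gene most like Cck was Slc17a7, the vesicular glutamate transporter of excitatory neurons (r 0.98, n = 28 groups, 10250 genes considered). Those most like Gad2 and Slc32a1 were in both cases Cacna2d2, a calcium channel subunit (0.97 and 0.97), with Vat1l also among the top 3 of each. For the others the closest were Pbx3 for Gad1 (0.91), Gabrg1, a GABA receptor subunit, for Lhx6 (0.88), Cbarp for Sst (0.90), Fam81a for Vip (0.96), C530008M17Rik for Calb2 (0.90), Bms1 for Reln (0.87) and Sgtb for Lamp5 (0.94).

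**Figure D4:**
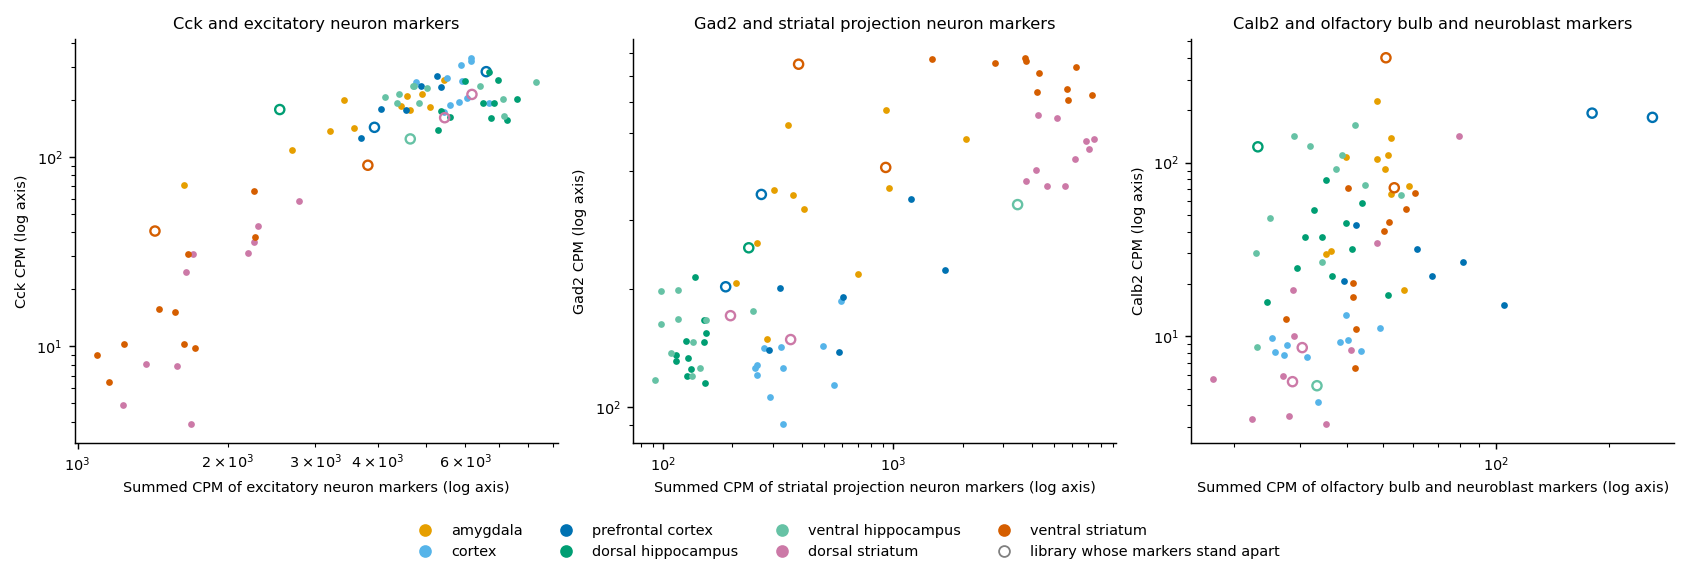
CPM of Cck, Gad2 and Calb2 (log axes) against the summed CPM of excitatory neuron, striatal projection neuron, and olfactory bulb and neuroblast markers in the 78 libraries, coloured by region, with libraries whose markers stand apart as open circles. The striatal libraries with few striatal markers have Cck up to 214 CPM, and the prefrontal libraries with bulb markers of 180.4 and 261 CPM have Calb2 of 193 and 182 CPM.

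Other genes of the pathway were followed in lists of 13, 21 and 24 genes. Of the 13 genes of GABA transport and turnover, 7 had their highest region mean in ventral striatum, as Gad1, Gad2 and Slc32a1 did. Between ventral striatum and cortex 7 were higher and 2 lower, where 25.3% of all genes were higher and 21.8% lower, with a median log2 difference of 0.32 against 0.06 over all genes. Abat, the GABA transaminase that breaks GABA down, had region means from 257 CPM in dorsal hippocampus to 746 in ventral striatum. Slc6a11, a GABA transporter of astrocytes, ranged from 126 CPM in cortex to 302 in ventral striatum. Slc6a13, a transporter of meninges and vessels, ranged from a mean of 3.1 CPM in amygdala to 14.7 in prefrontal cortex. Its prefrontal median was 6.31 CPM. The libraries of WT mice 11 and 3, which stand apart, were at 31.02 and 47.2 CPM, and the others at 0.814 to 20.1. Of the 21 lineage transcription factors, 7 were higher and 5 lower in ventral striatum than in cortex, a share near the 47.1% of all genes called. Lhx8, of cholinergic interneurons, had a mean of 21.9 CPM in ventral striatum and 0.0241 in dorsal hippocampus, Dlx6 ranged from 2.655 to 34.03 CPM between the same regions, and Prox1, also a gene of dentate granule cells, from 11.5 CPM in cortex to 222 in dorsal hippocampus. Of the 24 other class genes, 12 were higher and 6 lower in ventral striatum than in cortex, against 25.3% and 21.8% of all genes. Chat, of cholinergic neurons, was at 25.9 CPM in ventral striatum and 0.557 in dorsal hippocampus. Pvalb, of fast-spiking interneurons, was at 116 CPM in cortex and 16 in prefrontal cortex. Th, which makes dopamine precursor, had a mean of 19.6 CPM in prefrontal cortex and 0.811 in cortex. Its prefrontal values were 53.1 and 71.7 CPM in WT mice 11 and 3, whose libraries stand apart, and 2.45 to 8.47 in the others.

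None of the 10 genes passed the test of KO against WT in any region with low counts filtered. With no low-count filter 4 members were called in prefrontal cortex with the sexes pooled (Gad1, Calb2, Reln and Lamp5). In female prefrontal cortex 5 were called (these and Cck), and in male ventral striatum 2 (Vip and Lamp5). Shares of all genes called with no filter are not given here, so these counts have no background beside them. With the sexes pooled, the KO and WT ranges overlapped for all 70 combinations of gene and region. EdgeR's quasi-likelihood test with sex as a term called 0 of 69 tests (Calb2 in cortex had too few reads), against 0.0186% over all genes, and DESeq2 called 0 too. The smallest adjusted p was 0.176, for Reln in prefrontal cortex. At an unadjusted p under 0.05 there were 9 of 69, against 4.86% of tests over all genes, and 5 of the 9 were in prefrontal cortex. Standard errors of the log2 differences ranged from 0.0974 to 1.11 with a median of 0.231, so the fits bound the difference closely for some genes and hardly at all for Vip, Cck and Calb2 in the striatum. Differences between genotypes that are smaller than these errors were not detectable here, and larger ones could go uncalled too. In prefrontal cortex Reln differed by -0.73 ± 0.198 (SE) and was not called (adjusted p 0.176, edgeR).

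**Figure D5:**
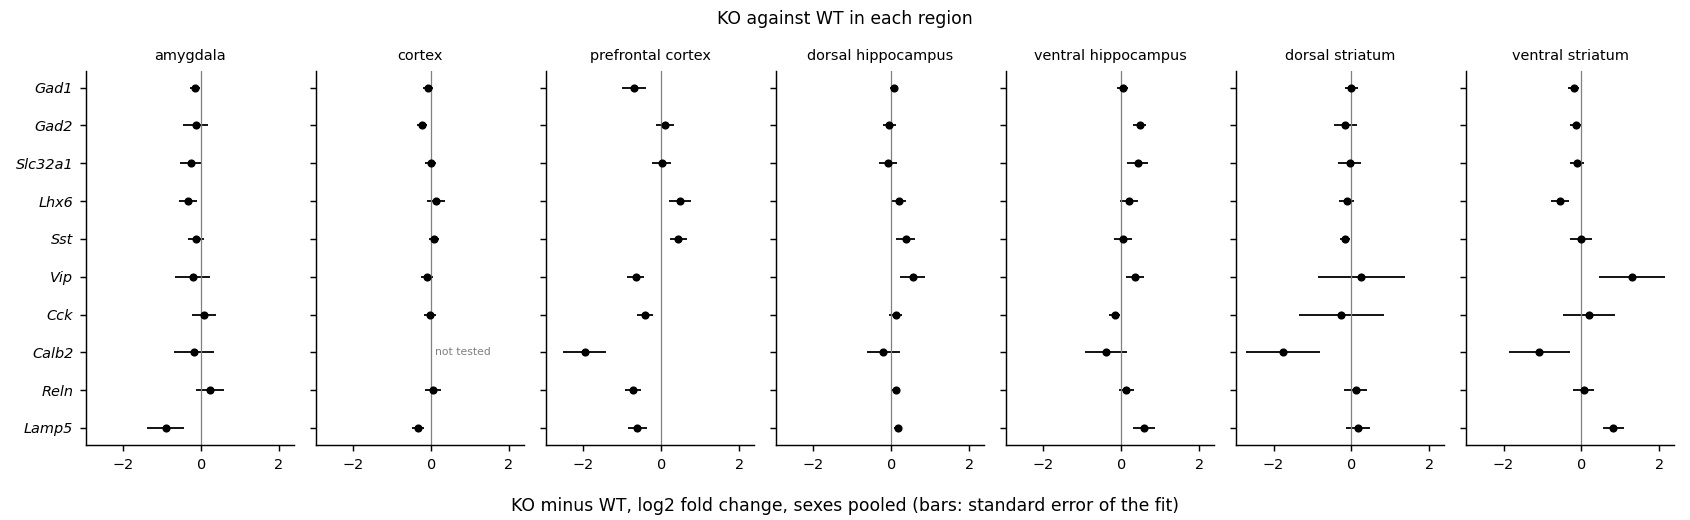
Log2 fold change of KO over WT for each of the 10 genes in each region, sexes pooled, with the standard error of the edgeR fit as bars. Points lie between -1.97 (Calb2, prefrontal cortex) and 1.3 (Vip, ventral striatum), and the bars are widest for Vip, Cck and Calb2 in the striatal regions.

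The GABA synthesis and packaging genes had overlapping ranges in every region. In ventral striatum Gad2 was at 408, 680.3 and 778 CPM in 6 KO libraries and 625, 751 and 772 in 6 WT libraries, and Slc32a1 at 190.3, 337 and 432 CPM against 300.5, 338 and 434. The single low KO library was that of male mouse 10, which stands apart. In ventral hippocampus Gad2 was at 119.9, 186 and 328 CPM in KO and 117, 142 and 167 in WT, with a log2 difference of 0.47 ± 0.17 (SE, unadjusted p 0.0121, adjusted p 0.966, edgeR). The highest KO value there was the library of female mouse 6 with striatal markers.

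In prefrontal cortex Calb2, Gad1 and Reln were highest in the WT libraries with high olfactory bulb markers. Calb2 was at 22.2, 15.1 and 26.9 CPM in female KO libraries and 43.9 in the male KO library, and at 193 and 20.8 CPM in female WT and 182 and 31.8 in male WT. The 2 high WT values are those of mice 11 and 3, whose bulb and neuroblast markers stand apart, and the other 2 WT libraries lie within the KO range. The log2 difference was -1.97 ± 0.55 (SE, adjusted p 0.189, edgeR), where 11 genes in all were called (0.0925%), and 5 of 10 members had an unadjusted p under 0.05, against 8.63% of all genes. Without the library labelled female WT, mouse 23, Calb2 was called at -2.36 ± 0.45 (adjusted p 0.0259), the 1 member among 0.636% of all genes. Without mice 11 and 3 the log2 difference was 0.26 (adjusted p 0.998). The 4 bulb and neuroblast markers (Doc2g, Eomes, Dcx and Sox11) summed to 42.2 to 105 CPM in KO and 39.2 to 261 CPM in WT, with Eomes at a median of 0 over the region, and their part in the result was not tested.

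Gad1, Reln, Lamp5 and Vip showed lower KO values there without passing the test. Gad1 was at 291, 303, 328 and 497 CPM in KO and 311, 368, 649 and 1361 in WT (log2 -0.70, adjusted p 0.509, edgeR), and at 0.17 without mice 11 and 3. Reln was at 63.4, 78.9, 85.2 and 96.6 CPM in KO and 95.3, 114, 162 and 172 in WT (log2 -0.73, adjusted p 0.176), and differed by -0.34 (adjusted p 0.921) without mice 11 and 3. Without mouse 12, whose WT value of 95.3 CPM is the lowest, edgeR called Reln (-0.87, adjusted p 0.0288) and Calb2 (-2.28, adjusted p 0.0301). The share of all genes called in that fit is not given here. Lamp5 and Vip differed by -0.61 and -0.66 (adjusted p 0.442 and 0.322), and their values without mice 11 and 3 are not given here. Lhx6 and Sst went the other way, uncalled. They were higher in KO by 0.49 ± 0.28 and 0.44 ± 0.22 (SE, adjusted p 0.714 and 0.641, edgeR). Of the 10 members, 4 had a positive log2 difference in this fit.

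Of the lists, 1 gene was called in these 7 regions, against 0.0186% of tests over all genes: Slc6a13 in prefrontal cortex. There 0.0925% of all genes were called. Slc6a13 was at 2.11, 3.55, 0.814 and 5.27 CPM in KO and 31.02, 7.34, 47.2 and 20.1 in WT. The log2 difference was -2.97 ± 0.53 (SE, adjusted p 0.0457, edgeR). The WT values of 31.02 and 47.2 CPM are those of mice 11 and 3, whose libraries stand apart. A difference without them is not given here. The KO values of mice 4 and 6 lie below what 3 counts are worth in those libraries. Without the library labelled female WT, mouse 23, Slc6a13 (-3.31, adjusted p 0.0039), Slc6a11 (-1.02, adjusted p 0.0466), Th (-3.19, adjusted p 0.0165) and Synpr (-1.48, adjusted p 0.0163), a synaptic vesicle protein, were called. In that fit 0.636% of all genes were called. Th was at 53.1 and 71.7 CPM in the WT libraries of mice 11 and 3 and between 2.45 and 8.47 CPM in the other 6 libraries. Synpr was at 202 and 235 CPM in the same WT libraries and 50.7 to 113 in the rest.

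In ventral striatum Lamp5 was at 94.1, 145 and 224 CPM in KO and 50.8, 85.8 and 122 in WT, overlapping (log2 0.82 ± 0.27, SE, unadjusted p 0.0103, adjusted p 0.651, edgeR). Both extremes, male KO mouse 10 and male WT mouse 13, are libraries that stand apart. Lhx6 was at 25.1, 36.7 and 50.2 CPM in KO and 31.04, 58.1 and 73.6 in WT (log2 -0.55 ± 0.23, adjusted p 0.651). Vip showed the highest fold of these genes, 1.3 ± 0.844, and rested on 1 library: male KO mouse 10 had 52.2 CPM and the other 11 had 1.42 to 8.88.

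Within each sex, 13 comparisons with edgeR called 0 of 128 tests on the members, against 0.0368% over all genes, and DESeq2 called 0. At an unadjusted p under 0.05 there were 17 of 128, against 4.53%. The smallest adjusted p were 0.0733 for Reln (log2 -0.90) and 0.097 for Calb2 (-2.42) in female prefrontal cortex, where the WT arm holds only mice 11 and 23. Leaving out either leaves 1 WT library, assumed to vary like the other groups. Calls from these fits are given without the share of all genes called. Without mouse 11 the log2 difference of Calb2 was 0.036, against the library that carries Ddx3y. Without mouse 23, 4 members were called (Gad1, Calb2, Reln and Lamp5), against the library of mouse 11, which stands apart by its bulb markers. In female dorsal hippocampus Sst was called once the library of mouse 23 was left out (adjusted p 0.0388). In male ventral striatum Vip differed by 3.17 ± 1.01 and Lamp5 by 1.15 ± 0.32 on the log2 scale (SE, unadjusted p 0.0144 and 0.00746), neither called. Whether the KO effect differed by sex was tested in 6 regions and was called for 0 of 59 tests by edgeR and by DESeq2, against 0% over all genes. At an unadjusted p under 0.05 there were 5 (4.25% over all genes), among them Vip in ventral striatum.

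Over all regions together, with the mouse as a random block in limma-voom, KO against WT called 0 members, against 0.0307% of all genes. Calb2 (-0.59 ± 0.29, SE, adjusted p 0.844, limma) and Lhx6 (-0.23 ± 0.10, adjusted p 0.844) had an unadjusted p under 0.05, against 5.77% of all genes. Without the libraries that stand apart Calb2 was at -0.33 (unadjusted p 0.214) and Lhx6 at -0.22 (unadjusted p 0.026), adjusted p 0.93 and 0.801 (limma). Over 40 KO and 38 WT libraries the medians were 22.2 and 33.1 CPM for Calb2, 20.7 and 19.2 for Lhx6, and 137 and 130.2 for Sst. Differences of Cck, Reln and Lamp5 were within 0.06 of 0 on the log2 scale, with wider standard errors of 0.202, 0.123 and 0.135. Female against male libraries in the same fit called 0 members, against 0.123% of all genes, and none had an unadjusted p under 0.05 (10.5% over all genes). Reln was nearest, with a log2 difference of females from males of -0.24 ± 0.12 (SE, unadjusted p 0.0516), and without the libraries that stand apart at -0.35 (unadjusted p 0.00491, adjusted p 0.207, limma).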

How the data were processed

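Deposited values were whole-number read counts per gene symbol in 2 tables, made by the authors. Per the submitters' processing notes STAR 2.5.2a, SAMtools 1.1, HTSeq 0.6.1, DESeq2 and R 4.0.2 were used with builds GRCm38 and mm10. The role of each, the annotation and the strand setting are not given in the sources used here, so reads of overlapping antisense genes cannot be told apart. Columns were matched to mice by the labels. CPM used the column total, and levels between genes used the union exonic length of GENCODE M21 (53186 of 55367 symbols matched).

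Regions were compared over 78 libraries, and KO with WT within a region (sex as a term) and within each sex, by edgeR 4.0.16 quasi-likelihood tests (R 4.3.3, TMM scaling, filterByExpr with a minimum count of 10 and a minimum total of 15), with Benjamini-Hochberg adjustment over all genes and a threshold of 0.05. The fit over all regions used limma 3.58.1 (voom) with the mouse as a random block. DESeq2 1.42.0, its size factors, no low-count filter, the mouse as a block, thinning to 629635 counts, single sexes and leaving out each mouse were alternatives. Scripts were tested on simulated data. Libraries of one number come from the same animal. Deviations from group means correlated at a mean r of 0.0129 over 210 same-mouse pairs of libraries and -0.00628 over 423 pairs of different mice.

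Libraries were set apart where striatal markers were under 1000 CPM in either striatal region or above it in either hippocampal region. The other rules were bulb markers above 150 CPM in prefrontal cortex and excitatory markers under 3000 CPM in either hippocampal region. All were set after these values had been seen, and amygdala and cortex had no rule. The members and all gene lists were chosen with earlier results of these data known. Genes named from each list were those called in a KO comparison and the 3 with the largest ratio of highest to lowest region mean, among genes whose highest mean was at least 10 CPM and with the lowest mean set to at least 1 CPM, and the 3 genes most like each member were taken among genes with a mean of at least 10 CPM, by Pearson's r of log2(CPM + 1). Promoters came from the RefSeq table.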

Additional observations from a re-analysis of the deposited data

Results flagged for a closer look

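In 16 of 140 sets of values, each of 1 gene in the 4 to 6 libraries of a region and genotype, 1 library lay far from the others by Dixon's test, where chance gives about 1 in 20. The 16 values came from 10 libraries. Dorsal striatum of male KO mouse 10 gave 4 of them: Cck at 161 CPM, Gad2 at 148 (the lowest), Lamp5 at 269 and Vip at 42.5 CPM. Dorsal striatum of female WT mouse 23 gave Cck at 214, Lamp5 at 186 and Vip at 29.8 CPM. In ventral striatum Vip was at 52.2 CPM in male KO mouse 10. In ventral hippocampus female KO mouse 6 had Cck at 125 CPM, the lowest, and Slc32a1 at 219 CPM. Gad2 was at 255 CPM in dorsal hippocampus of female WT mouse 23. Each of these libraries also stood apart by its marker genes.

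Male WT mouse 13 was far from the other WT libraries for Calb2 in both striatal regions, at 143 CPM in dorsal and 401 CPM in ventral striatum, and for Cck in dorsal hippocampus at 282 CPM. Its dorsal striatum and dorsal hippocampus libraries were within the marker ranges of their regions. Lamp5 at 293 CPM in amygdala of female WT mouse 23 and Sst at 232 CPM in ventral hippocampus of male KO mouse 2 were also far from the others. No marker list set these libraries apart, but no rule was applied in amygdala.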

How the results depend on the processing

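Regional differences kept all 10 members called in each alternative. Between dorsal and ventral hippocampus the count of 0 became 1 with DESeq2 size factors, the DESeq2 test, female libraries only and without the libraries that stand apart (an alternative chosen after seeing the data), and lay between 0 and 2 when each mouse was left out. Between the striatal regions 4 became 2 in females and 1 in males, and between cortex and prefrontal cortex 4 became 2 in females, where fewer libraries enter. With the mouse as a replicate block 124 of the 210 tests were called, against 128, and 8 calls changed. In the fit over all regions no member was called with the block or without it. Within a region each mouse gave a single library, so the tests of KO against WT there could hold no block.

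For KO against WT in prefrontal cortex the 0 called members became 4 without the low-count filter and 1 without the library labelled mouse 23, and lay between 0 and 2 over the left-out mice. Gad1 and Calb2 turned to 0.17 and 0.26 without the libraries that stand apart. In female prefrontal cortex 0 became 5 without the filter and lay between 0 and 4 over the left-out mice, with Calb2 between -3.19 and 0.036 (0.036 also without the libraries that stand apart). In female dorsal hippocampus 0 became 1 without the libraries that stand apart (0 to 1 over the left-out mice), in male ventral striatum 2 without the filter, and for the sex difference in ventral striatum 1 without the filter. The cause was not tested. Shares of all genes called are not given here for these alternatives. Depth limits Calb2 in cortex.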
